A study of Mus musculus with 14 samples.

Results

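The mouse genes for the receptors of IgE were followed across the cells of white nodules from 7 mice, 5 of which held a B cell clone that transcribed Ighe, the constant gene of the IgE heavy chain. The 4 genes were taken by symbol from the 32285 genes of the RNA matrices: Fcer1a, Ms4a2, Fcer1g and Fcer2a. IgE is bound by a high-affinity and a low-affinity receptor. The high-affinity receptor, FcεRI, sits on mast cells and basophils and is built from an α chain (Fcer1a) that binds IgE, a β chain (Ms4a2) that amplifies the signal, and a γ chain dimer (Fcer1g) that carries the signalling motif. Fcer1g also serves other receptors, among them the activating IgG receptors of macrophages and neutrophils, and its relative Tyrobp (DAP12) does the same for another set of receptors. The low-affinity receptor, CD23 (Fcer2a), is a lectin on B cells that binds IgE and is induced by IL-4.

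The 7 mice from which the nodules came carried floxed alleles of Eif3e, a subunit gene of the translation initiation factor eIF3, and the Cre recombinase under the control of the Ighg1 germline transcript (Cγ1-Cre), which is active in B cells responding to antigen. They are called cKO. Mice 29, 31, 32 and 34 also carried a Rosa26-YFP reporter. BCR sequencing was paired with RNA sequencing for mouse 27 (liver nodules, 12 months), mouse 29 (lung, 12 months), mouse 31 (spleen, 13 months), mouse 33 (thymus, 16 months) and mouse 34 (lung and thymus, 9 months), and TCR sequencing for mouse 30 (liver, 14 months) and mouse 32 (spleen, 12 months). The study's text describes the sample of mouse 27 as a secondary tumor, grown after transplantation of its liver nodule, and its transplants went into Rag2-/- mice, which lack B and T cells of their own; the labels name liver nodules of mouse 27 and no recipient. Host cells of that library, the myeloid cells among them, may thus be the recipient's and not cKO, and its age and site are those labelled for mouse 27. The other 6 samples were primary nodules. Each library held total cells after removal of dead cells, no nodule of control mice and no normal tissue was compared, and the site differed from mouse to mouse. Whether a given cell had lost Eif3e was not examined here.

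Of 77442 deposited cells, 75503 passed the filters, 6864 to 14057 in each mouse, with 19264039 to 123456962 unique molecular identifiers (UMIs, each standing for 1 captured RNA molecule) in a library. Any 2 libraries shared 1.198 to 2.28% of the barcodes of the smaller one. Cells were clustered without the 4 genes and named from marker genes. The clone of a BCR mouse was the family of cells that shared the leading heavy or light chain rearrangement: 1782, 323, 3974, 1084 and 1416 cells in mice 27, 29, 31, 33 and 34. B cells with another receptor were few, 31, 41, 27 and 24 in mice 29, 31, 33 and 34 and none in mouse 27, and most B-like cells had no receptor call and may hold clone cells. Levels are CPM, the UMIs of a gene per 1000000 UMIs of the cells summed, with exact 95% Poisson intervals that cover counting error only.

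The heavy chain junctions below name the 5 clones whose IgE receptor genes are described. Each is the most frequent heavy chain CDR3 nucleotide sequence of its clone, all in lower case since no part is singled out. In the V(D)J libraries of mice 27, 29, 31, 33 and 34 the families held 1783, 323, 3980, 1094 and 1417 cells. The printed junction was in 783, 232, 3278, 273 and 1033 of them, and the leading light chain in 1783, 309, 3967, 1083 and 1417. Most family cells of mice 27 and 33 were thus joined by the light chain alone, IGLV2 and IGLJ2 in mouse 33. Of the clone cells with RNA, 629 of 1782 in mouse 27 and 672 of 1084 in mouse 33 had no heavy chain contig (assembled sequence). Part of the rest thus held another heavy chain junction, and whether these cells share the clone's origin was not tested.
Mouse 27, IGHV1-75 and IGHJ1: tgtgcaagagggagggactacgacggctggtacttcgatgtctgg
Mouse 29, IGHV1-85 and IGHJ3: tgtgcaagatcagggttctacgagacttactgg
Mouse 31, IGHV1-18 and IGHJ4: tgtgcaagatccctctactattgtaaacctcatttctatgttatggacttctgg
Mouse 33, IGHV9-3 and IGHJ3: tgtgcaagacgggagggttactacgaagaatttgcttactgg
Mouse 34, IGHV9-1 and IGHJ2: tgtactagagaggatgactattgg

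Ighe reached 444, 180, 212, 128 and 120 CPM in the clones of mice 27, 29, 31, 33 and 34, with a UMI in 69.1 to 92.4% of cells. Igha, the IgA constant gene, stood at 70.5, 1.54, 11.1, 47.0 and 333 CPM, so the clone of mouse 34 held more Igha than the others. Ighm was between 0 and 8.72 CPM. Ighd, Ighg1, Ighg2b, Ighg2c and Ighg3 were at or below 0.287 CPM in all 5 clones. T-like cells of the same 5 libraries, which do not transcribe Ighe, held 2.30 to 48.4 CPM of it. B cells with another receptor held 898, 79.4, 66.1 and 59.2 CPM in mice 29, 31, 33 and 34. In mouse 29, 2 cells of cluster 8 held 16429 CPM and the 28 cells of cluster 15 held 29.6 CPM. B-like cells without a call held 477, 126, 144, 126 and 91.5 CPM in mice 27, 29, 31, 33 and 34. Ighe was thus not confined to the clones, and other B cells are not a group without it.

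The 2 genes particular to FcεRI lie on different chromosomes. In RefSeq's GRCm38.p6 annotation Fcer1a (ENSMUSG00000005339) spans chr1:173221269-173227232 and Ms4a2 (ENSMUSG00000024680) chr19:11615517-11623790. Fcer1g (ENSMUSG00000058715) spans chr1:171229572-171234349 and Fcer2a (ENSMUSG00000005540) chr8:3680280-3694174. All 4 are protein coding and their promoters are read from the minus strand. The promoters of Fcer1a and Ms4a2 are shown because these genes were detected together in mast or basophil-like cells (results below). Each window runs from 250 bases before to 50 bases after the start site, 5′ to 3′ on the gene's strand, and capitals mark matches of the GATA motif, searched on both strands as AGATAA or AGATAG and as TGATAA or TGATAG.
Fcer1a, chr1:173227180-173227479: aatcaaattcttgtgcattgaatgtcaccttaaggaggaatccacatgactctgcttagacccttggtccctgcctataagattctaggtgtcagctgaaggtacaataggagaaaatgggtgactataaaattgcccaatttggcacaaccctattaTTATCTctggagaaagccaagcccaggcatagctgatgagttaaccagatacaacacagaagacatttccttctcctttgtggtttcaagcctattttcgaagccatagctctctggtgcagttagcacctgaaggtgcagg
Ms4a2, chr19:11623670-11623969: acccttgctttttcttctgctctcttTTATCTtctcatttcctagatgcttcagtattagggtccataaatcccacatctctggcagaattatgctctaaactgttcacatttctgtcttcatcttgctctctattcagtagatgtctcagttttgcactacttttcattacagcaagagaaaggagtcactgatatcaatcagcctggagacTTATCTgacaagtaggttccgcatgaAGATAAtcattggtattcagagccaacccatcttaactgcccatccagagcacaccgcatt
The Fcer1a window held 1 match and the Ms4a2 window 3. The Fcer1g window held 0, and the 3 Fcer2a windows held 0, 1 and 1. At least 1 match stood in 9778 of 32851 RefSeq promoter windows of the same length (29.8%), so a match is common and is given as a description of the letters.

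Fcer2a was the IgE receptor gene that stood above the T-like cells in all 5 B clones. The clone of mouse 31 held 150 CPM (146.5 to 153.4), that of mouse 33 held 70.0 CPM, that of mouse 27 held 34.5 CPM (31.9 to 37.4), that of mouse 34 held 30.3 CPM (27.8 to 32.98) and that of mouse 29 held 5.64 CPM (3.54 to 8.54). The order was mouse 31, 33, 27, 34 and 29, and only the intervals of mice 27 and 34 overlapped. The gene was seen in 70.4, 44.9, 23.3, 23.4 and 4.33% of the clone cells in that order. After thinning to 3000 UMIs per cell, 33.9, 16.3, 10.2, 8.27 and 1.53% of clone cells were expected to hold a UMI. T-like cells of the same mice, thinned alike, held one in 6.20, 0.998, 3.02, 0.349 and 0% of cells, below the clone in every mouse. The order of Fcer2a was not that of Ighe, which was highest in mouse 27 and lowest in mouse 34.

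**Figure D1:**
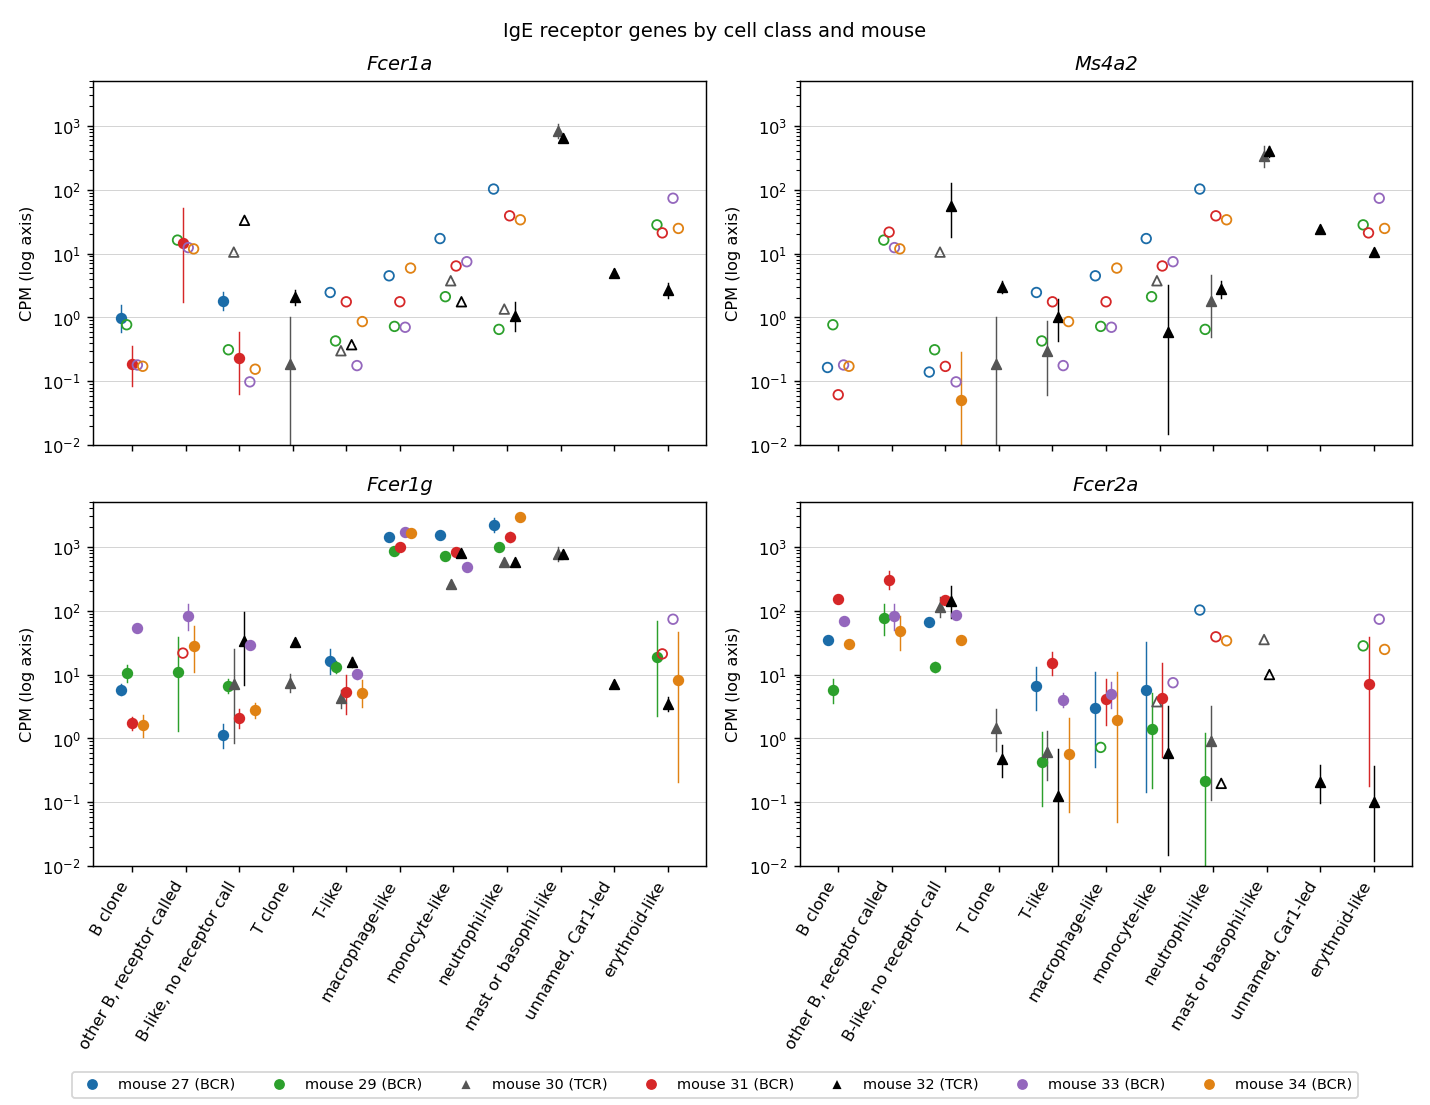
CPM of Fcer1a, Ms4a2, Fcer1g and Fcer2a (log axes) in each cell class of at least 20 cells, 1 symbol a mouse, circles for BCR and triangles for TCR mice, with 95% Poisson intervals; open symbols stand at the limit that a count of 0 allows (3 UMIs). Fcer1a and Ms4a2 peak in mast or basophil-like cells (835 and 633 CPM, 341 and 397 CPM), Fcer1g in myeloid and mast or basophil-like cells, and Fcer2a in B cells.

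Myeloid cells of the same nodules held little Fcer2a. Macrophage-, monocyte- and neutrophil-like cells summed per mouse held 3.44, 0.295, 3.999, 4.44 and 1.60 CPM in mice 27, 29, 31, 33 and 34, from 1 to 21 UMIs, each below the clone of its mouse. Over the 5 mice the clones held 58.1 ± 56.3 and the myeloid cells 2.75 ± 1.75 CPM (SD, n = 5). In edgeR's quasi-likelihood test with mouse as a block, Fcer2a was 17.4-fold higher in the clones (log2 4.12 ± 0.35 SE, Benjamini-Hochberg adjusted p = 0.000181), in a comparison in which 45.4% of 11759 genes passed an adjusted p of 0.05. The difference held in 11 of 11 alternatives (log2 3.72 to 4.36), and without mouse 27 it was log2 4.32 (edgeR adjusted p = 0.000968).

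B cells with another receptor held Fcer2a too. Their levels were 75.7, 303, 82.6 and 47.4 CPM in mice 29, 31, 33 and 34, from 14, 42, 20 and 12 UMIs in 2, 14, 9 and 6 cells. Each exceeded the clone of its mouse, though the intervals of mouse 33 (50.4 to 128) and of mouse 34 (24.5 to 82.7) included the clone's level. The difference was log2 -1.27 ± 0.53 SE, clone minus other B cells, lower in 4 of 4 mice and short of the threshold (edgeR adjusted p = 0.436). In that comparison 0.0217% of 9229 genes passed, namely Ighm (log2 -10.36) and Igkv4-91 (log2 -12.14), both lower in the clones and named after their values were seen. Of the 27 cells of mouse 33, 17 lay in cluster 8 and 5 in cluster 20, which held 919 and 159 of its 1084 clone cells. Of the 31 cells of mouse 29, 28 lay in cluster 15 with 298 clone cells. Mouse 31 differed: of its 41 cells, 2 and 3 lay in clusters 4 and 16, which held 3691 and 265 clone cells. Another 23 lay in cluster 15 and 11 in cluster 6. Of the 24 cells of mouse 34, 11 lay in cluster 5 with 1392 clone cells and 12 in cluster 15. B-like cells without a receptor call held 65.9, 13.3, 144, 86.2 and 34.5 CPM in mice 27, 29, 31, 33 and 34, a range with the same lowest and highest mouse as the clones. The few B-like cells of the TCR mice, 59 in mouse 30 and 26 in mouse 32, held 116 and 143 CPM, the latter with 13 UMIs in 1 cell.

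**Figure D2:**
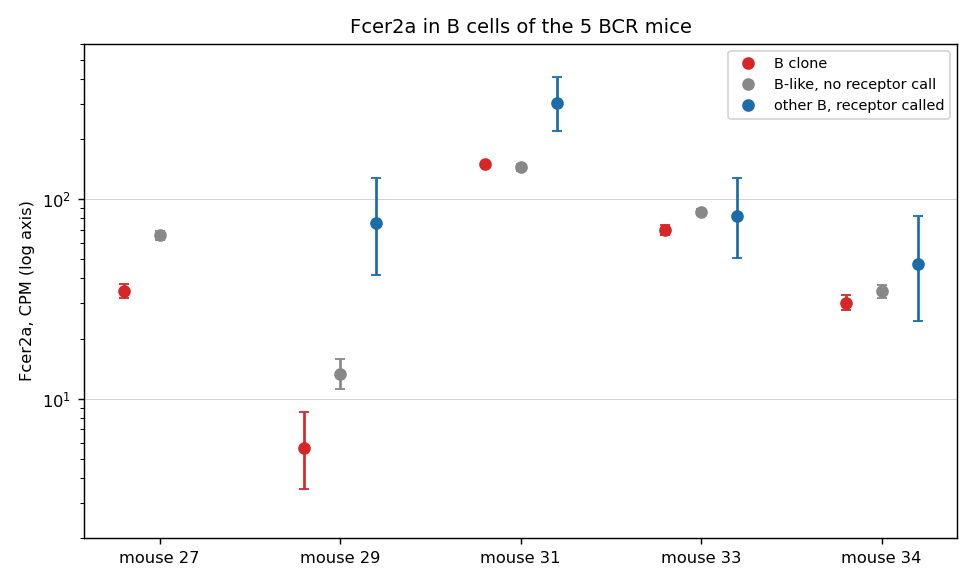
Fcer2a (CPM, log axis) in the clone, in B-like cells without a receptor call and in B cells with another receptor, for each BCR mouse, with 95% Poisson intervals. The clone point lies lowest in each mouse that has all classes except mouse 31, where the clone (150 CPM) and the uncalled B-like cells (144 CPM) lie together; mouse 27 has no B cell with another receptor.

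Within the clones, Fcer2a was compared between cells with and without an Ighe UMI. Each cell was thinned to 3000 UMIs, which left out 1 to 54 cells of a clone, and 29.7 to 67.6% of cells then held an Ighe UMI. Cells with Ighe held 35.3, 2.85, 151, 58.7 and 30.2 CPM of Fcer2a in mice 27, 29, 31, 33 and 34, and cells without held 46.6, 8.13, 150, 77.0 and 33.3 CPM. The level was lower with Ighe in 4 of 5 mice, and in mouse 29 it rested on 1 and 5 UMIs. The mean log2 difference, with 1 CPM added, was -0.43 ± 0.49 (SD, n = 5; exact two-sided sign-flip test p = 0.125, adjusted p = 0.25 over 2 genes), where 0.0625 is the smallest p that 5 mice allow. The mean was -0.69 with all UMIs and, at 3000 UMIs, -0.44 without mouse 27 (exact test, adjusted p = 0.375 over 2 genes). With 6000 UMIs per cell the gene was higher with Ighe in 3 of 5 mice, so the direction in single mice moved with the depth. Fcer1g showed no steady direction either (mean log2 -0.80 ± 1.90, exact p = 0.5625), and its sign turned without mouse 29, in which Fcer1g stood at 0 UMIs in cells with Ighe and at 10 in cells without.

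**Figure D3:**
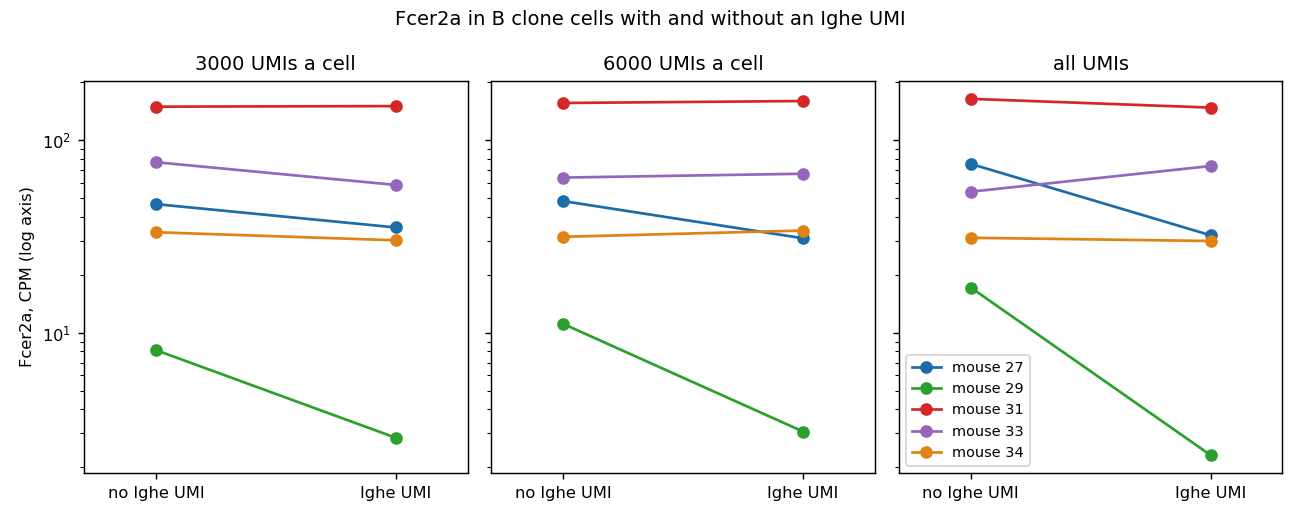
Fcer2a (CPM, log axis) in clone cells without and with an Ighe UMI, 1 line per BCR mouse, at 3000 UMIs per cell, 6000 UMIs per cell and with all UMIs. At 3000 UMIs the line of mouse 31 is level (150 and 151 CPM) and the other lines fall to the right.

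The contigs of the BCR libraries gave the class of the heavy chain in part of the cells. In mouse 33, clone cells with an IGHE contig held 75.9 CPM of Fcer2a (63.6 to 89.8) and cells with an IGHA contig held 81.4 CPM (58.9 to 110), with overlapping intervals. In mouse 31 the 3429 cells with an IGHE contig held 149 CPM and in mouse 29 the 232 such cells held 4.17 CPM. In mouse 34 the 1271 cells with an IGHA contig held 29.3 CPM. The differences between mice were thus larger than those between contig classes of mouse 33.

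Fcer1g was a gene of the myeloid cells. They held 1475, 887, 971, 1607 and 1823 CPM in mice 27, 29, 31, 33 and 34, and 82.3% of macrophage-like and 71.6% of neutrophil-like cells of all mice had a UMI. Of all 38782 Fcer1g UMIs, 84.5% were in macrophage-, monocyte- and neutrophil-like cells. The clones held 5.78, 10.5, 1.73, 52.6 and 1.61 CPM in the same order, below the myeloid cells in every mouse. The difference was 246-fold (log2 -7.94 ± 0.93 SE, clone minus myeloid, edgeR adjusted p = 0.000674) and held in 11 of 11 alternatives (log2 -10.79 to -6.56), with log2 -7.87 without mouse 27 (edgeR adjusted p = 0.00444).

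Outside mouse 33, Fcer1g in each clone lay below that of the T-like cells of its mouse. T-like cells held 16.4, 13.2, 5.28 and 5.17 CPM in mice 27, 29, 31 and 34. Cells with at least 2 UMIs of markers of another lineage are here called doublet-like. Leaving them out lowered Fcer1g in the clones of mice 27, 29, 31 and 34 to 0.120, 1.25, 0.420 and 0.479 CPM. That left 1664 of 1782, 142 of 323, 2351 of 3974 and 1230 of 1416 clone cells. The T clone of mouse 32 went from 32.1 to 3.34 CPM, with 2419 of 4868 cells left. That of mouse 30 went from 7.38 to 2.25 CPM, with 1702 of 2107 left. Myeloid markers are part of the rule, so a fall of genes that go with them is in part built in. Whether the cells left out were doublets was not tested. Fcer1g and Tyrobp UMIs kept a ratio of 0.323 to 0.547 in these 4 B clones, against 0.361 to 0.753 in the myeloid cells of those mice.

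The clone of mouse 33 stood apart in Fcer1g. It held 873 UMIs in 219 of 1084 cells (20.2%), 52.6 CPM (49.1 to 56.2), and 48.0 CPM without doublet-like cells. Thinned to 3000 UMIs, 9.33% of clone cells were expected to hold a UMI against 2.37% of T-like cells of that mouse (median depths before thinning 13763 and 3439 UMIs). Of the 219 cells, 127 held no UMI of any macrophage, monocyte or neutrophil marker and 207 held Cd79a, a B cell receptor subunit. Clone cells without any such marker UMI, a split added after the data were seen, held 56.6 CPM in mouse 33 and 0.138, 1.73, 0.495 and 0.340 CPM in mice 27, 29, 31 and 34.

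Myeloid genes were not high beside it. The clone of mouse 33 held 4.03 CPM of Tyrobp, 9.93 of Lyz2 and 3.13 of C1qa, where the other clones held 4.14 to 32.6, 24.6 to 70.8 and 0.770 to 10.6 CPM. It held 13.0 Fcer1g UMIs per Tyrobp UMI, against 0.965 in the myeloid cells and 0.983 in the T-like cells of the same library. The UMIs were spread over 85 cells with 1 UMI, 115 cells with 2 to 9 and 19 cells with 10 or more, the last with 288 UMIs. The same mouse showed the gene in 7 of 27 B cells with another receptor (82.6 CPM, with 0 Tyrobp UMIs), most of which lay in the clone's clusters, and in B-like cells without a call (29.5 CPM). Within the clone it stood at 129 CPM in cluster 20 and 42.3 CPM in cluster 8. Cells with an IGHE contig held 67.4 CPM (55.9 to 80.6) and cells with an IGHA contig 22.7 CPM (11.7 to 39.7). These counting intervals did not overlap, but the shares of cells with Fcer1g did. It was in 18 of 118 IGHE cells (15.3%, 9.30 to 23.0) and 4 of 36 IGHA cells (11.1%, 3.11 to 26.1), with 120 and 12 UMIs. Cells with no constant call held 51.2 and cells with no heavy contig 52.9 CPM. These splits of 1 mouse have no replicate.

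**Figure D4:**
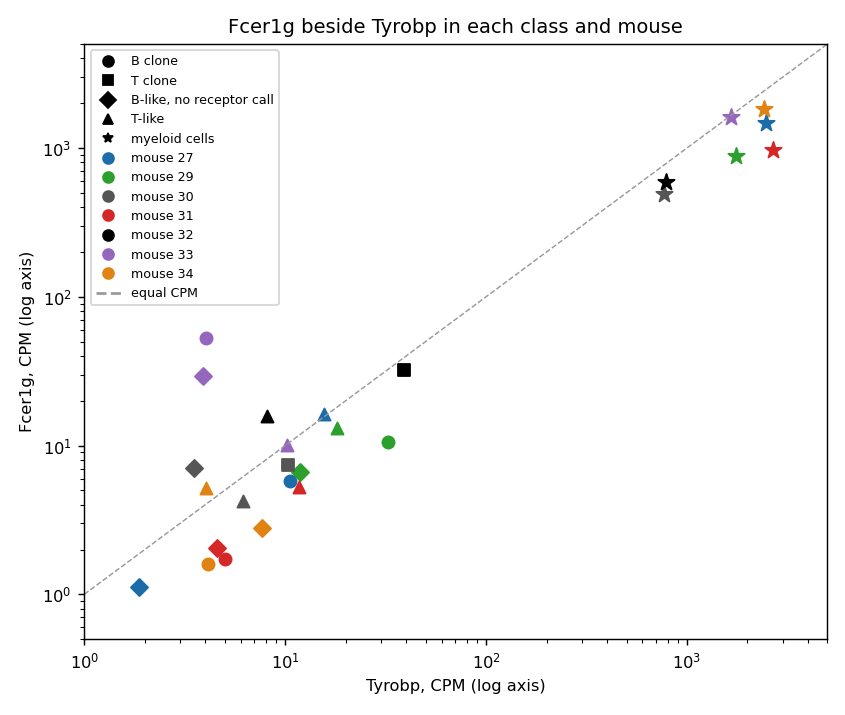
Fcer1g against Tyrobp (CPM, log axes) in classes of at least 50 cells and in the summed myeloid cells, coloured by mouse; the dashed line marks equal CPM. The clone of mouse 33 (52.6 against 4.03 CPM) and its uncalled B-like cells (29.5 against 3.90 CPM) lie farthest above the line, with 13.0 and 7.57 Fcer1g UMIs per Tyrobp UMI.

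B cells with another receptor did not differ from the clones in Fcer1g beyond the spread. They held 10.8, 0, 82.6 and 27.6 CPM in mice 29, 31, 33 and 34, from 2, 0, 20 and 7 UMIs. Clone minus other B cells was log2 -1.51 ± 0.70 SE (edgeR adjusted p = 0.473), and 9 alternatives ranged from -2.06 to -0.55. With so few UMIs the comparison has little depth.

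Myeloid cells were also compared between nodules of Ighe-transcribing clones and nodules of T clones. Fcer1g was 1352 ± 407 CPM (SD, n = 5) in BCR mice and 488 and 594 CPM in the 2 TCR mice, and the groups did not overlap. The difference was log2 1.37 ± 0.43 SE and short of the threshold by edgeR (adjusted p = 0.0923; 5.97% of 11670 genes passed, 2.47% higher and 3.5% lower in BCR mice), while DESeq2 gave log2 1.40 with adjusted p = 0.000164. Without mouse 27 the difference was log2 1.37 (edgeR adjusted p = 0.198). The makeup of the myeloid cells moved with it: neutrophil-like cells were 79.5 and 87.4% of them in the TCR mice and 0.987 to 66.8% in the BCR mice. Among neutrophil-like cells alone, the TCR mice held 570 and 569 CPM and BCR mice with at least 20 such cells 975 to 2960 CPM, and the difference was log2 1.58 ± 0.79 SE (edgeR adjusted p = 0.249). Fcer2a was 0.663 and 0.0590 CPM in the myeloid cells of the TCR mice, from 2 and 1 UMIs, and did not pass (log2 3.49 ± 1.42 SE, BCR minus TCR, edgeR adjusted p = 0.185; without mouse 27 log2 3.45, adjusted p = 0.272). Site and receptor type cannot be told apart from the mouse in these 7 libraries.

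Fcer1a and Ms4a2 were highest in a group of 58 cells, 14 of which held neither gene. Cells of this group, a sub-cluster led by Prss34, Ccl3 and Hdc and named mast or basophil-like from its markers, numbered 28 each in mice 30 and 32 and 1 each in mice 27 and 29. They held Hdc, the histamine-forming enzyme, at 4687 CPM, and Mcpt8 and Prss34, proteases of basophils, at 2282 and 4120 CPM. Of the mast cell proteases, Tpsb2 and Tpsab1 had 0 UMIs, Cma1 had 3 and Mcpt4 had 9. Fcer1a was found in 16 of 28 cells of mouse 30 (835 CPM, 652 to 1053) and 19 of 28 of mouse 32 (633 CPM, 546 to 730). Ms4a2 was found in 11 and 19 cells (341 and 397 CPM), Fcer1g in 17 and 24 cells (764 and 773 CPM) and Fcer2a in none.

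The 3 subunit genes were together in 21 of the 58 cells (36.2%), 5 in mouse 30 and 16 in mouse 32, with median depths of 2469.5 and 8154 UMIs. In the myeloid cells of mouse 30, Fcer1a had 0 UMIs, which makes the mast or basophil-like level at least 840-fold higher against 3 UMIs, and in mouse 32 it had 16 UMIs, a ratio of 670. Ms4a2 had 4 and 44 UMIs in these myeloid cells, ratios of 257 and 153. By edgeR with mouse as a block, mast or basophil-like minus myeloid cells was log2 9.95 ± 0.76 SE for Fcer1a (adjusted p = 3.02e-35) and log2 7.38 ± 0.68 SE for Ms4a2 (adjusted p = 1.49e-24), where 6.56% of 9688 genes passed, 2.88% higher and 3.68% lower. Fcer1g, which myeloid cells also hold, stood at log2 0.38 ± 0.49 SE (adjusted p = 0.894). With 2 mice and 1 residual degree of freedom, these tests lean on the spread shared across genes, and the 28 cells of a mouse are not replicates.

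The nodules whose clones transcribed Ighe held few or no mast or basophil-like cells. The share was 0.267 and 0.209% in the TCR mice 30 and 32, 0.0106 and 0.00711% in mice 27 and 29, and 0 in mice 31, 33 and 34, which allows shares of up to 0.0264, 0.0301 and 0.0437%. BCR minus TCR mice was -0.235 percentage points (exact two-sided permutation test p = 0.0952, the smallest that 5 against 2 mice allow), and -0.237 points without mouse 27. Every TCR mouse lay above every BCR mouse. Under a rule of at least 2 markers and 3 marker UMIs in a single cell outside the clone the shares were 0.0200 to 0.306% in BCR mice, 0.544% in mouse 30 and 13.1% in mouse 32, where 1725 of the 1753 cells lay outside the mast or basophil-like sub-cluster.

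Most UMIs of Ms4a2, and most of Fcer1a, lay outside the mast or basophil-like cells. Of the 1693 Ms4a2 UMIs, 97.6% came from mouse 32, and 69.3% from a cluster of that mouse led by Car1 and Car2, carbonic anhydrases of erythroid precursors, which passed no naming rule. These cells held Kit, Gata1 and Gata2, regulators of erythroid and mast cell precursors, but hardly any Prss34 or Mcpt8. Ms4a2 stood at 24.2 CPM in 391 of 2538 Car1-led cells (15.4%) and at 10.4 CPM in 85 of 1162 erythroid-like cells of mouse 32. Fcer1a stood at 5.05 and 2.67 CPM there. Of its 715 UMIs in all mice, 36.8% were in mast or basophil-like and 34.3% in Car1-led cells, in 36 and 135 cells. In the T-like cells of mouse 32, Ms4a2 was 1.00 CPM with 8 UMIs and Fcer1a had 0 UMIs in 3325 cells.

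The balance of the 2 genes differed between these cells. There were 1.74 Fcer1a UMIs per Ms4a2 UMI in mast or basophil-like cells (263 and 151 UMIs) and 0.0339 to 0.236 in the 6 Car1-led sub-clusters. Sub-cluster M8 held the most of both, 13.8 CPM of Fcer1a and 59.6 CPM of Ms4a2 in 433 cells of mouse 32, with Fcer1g in 22.4% of them and all 3 genes in 14 cells. M8 also held 115 CPM of Hdc, 141 of Slc18a2 and 62.6 of Cpa3. Cma1 stood at 19.9 CPM in M8 and 7.73 CPM in mast or basophil-like cells, and Mcpt4 at 15.5 and 23.2 CPM. In sub-cluster M0, 1 of 924 cells held all 3 genes.

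**Figure D5:**
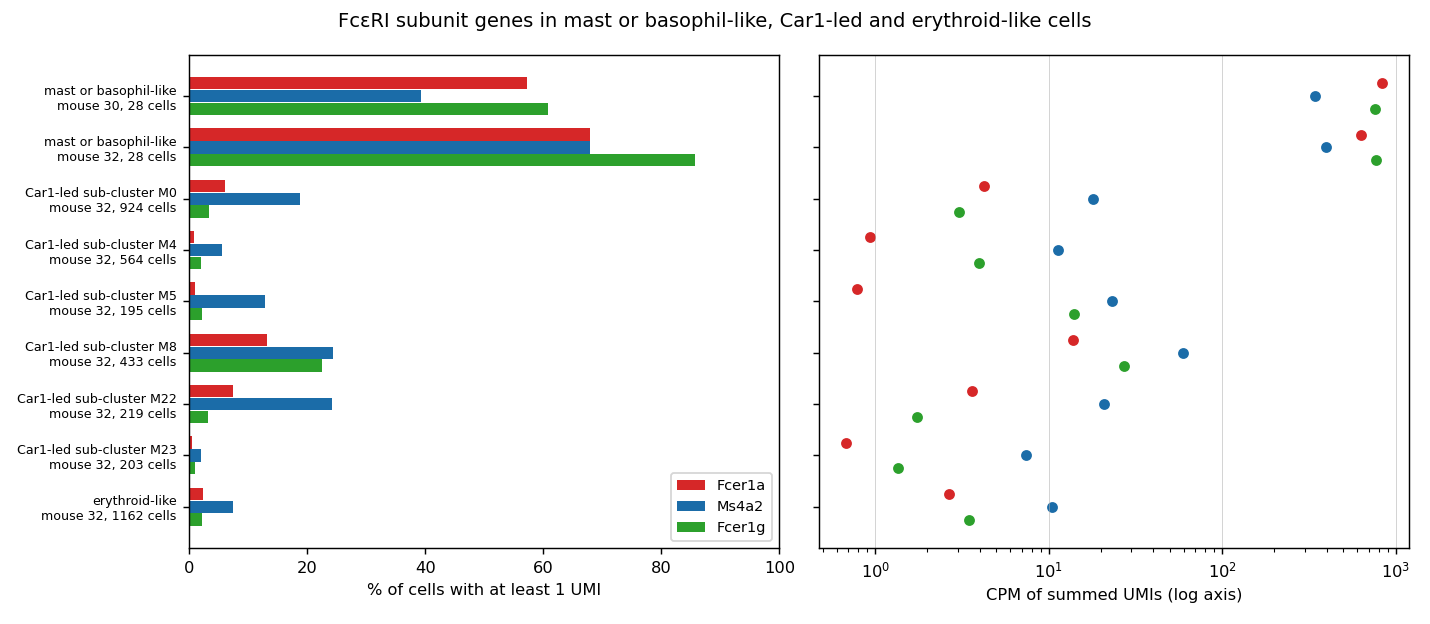
Left, share of cells with at least 1 UMI of Fcer1a, Ms4a2 and Fcer1g; right, CPM of summed UMIs (log axis), in mast or basophil-like cells of mice 30 and 32 and in Car1-led sub-clusters and erythroid-like cells of mouse 32. Fcer1a reaches 835 and 633 CPM in the first 2 groups and stays at or below 13.8 CPM in the others, where the Ms4a2 points lie to the right of the Fcer1a points.

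In the B clones, Ms4a2 had 0 UMIs in all 5 mice, which allows at most 0.0618 to 0.770 CPM. Fcer1a had 0 UMIs in the clones of mice 29, 33 and 34, 9 UMIs in 4 cells of mouse 31, of which 6 in 1 cell, and 18 UMIs in 15 cells of mouse 27 (0.990 CPM, 0.587 to 1.56). All 15 cells of mouse 27 held Cd79a and 14 held Ighe, and none held Ms4a2, Fcer1g or a mast or basophil marker. In the whole clone of that mouse 92.4% of cells held Ighe and 1.01% Fcer1g, so these counts are near the clone's own shares. B-like cells without a call in mouse 27 held 39 UMIs in 36 cells (1.82 CPM, 1.29 to 2.49), again with 0 mast or basophil marker UMIs. Fcer1a had 0 UMIs in the T-like and myeloid cells of mouse 27, with limits of 2.46 and 3.44 CPM, above the level seen in its clone. The share of clone cells with the gene was 0.842% and was expected at 0.283% after thinning to 3000 UMIs.

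The T clones gave few UMIs of the FcεRI genes. The clone of mouse 30 held 1 UMI each of Fcer1a and Ms4a2 in 2107 cells. That of mouse 32 held 57 UMIs of Fcer1a in 18 cells (2.06 CPM) and 83 of Ms4a2 in 49 cells (2.995 CPM), and without doublet-like cells 13 and 21 UMIs (1.28 and 2.07 CPM). The Car1-led cells of the same library held more of both.

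Genes whose levels followed each receptor gene were sought over 50 sums of a class in a mouse with at least 50 cells, among 17743 genes, as a description with no test; sums of 1 library share its depth, and mast or basophil-like cells were too few to enter. For Fcer1g the nearest were Tyrobp (Pearson r = 0.95), Igsf6 (0.94), Pirb (0.93), Fcgr3 (0.93) and Clec4a2 (0.92). For Fcer2a they included Gpat2 (0.91), Srpk3 (0.90), Mzb1 (0.90) and Pou2af1 (0.89), the last a B cell coactivator. For Ms4a2 they were Tfr2 (0.96), Klf1 (0.96), a regulator of erythroid genes, Trgj1 (0.96), Gm28857 (0.95) and Asb17os (0.95). For Fcer1a they were Mc1r (0.90), Slc18a2 (0.89), Gm26907 (0.89), Trgj1 (0.88) and Gm17747 (0.88). Fcer1a and Ms4a2 themselves had r = 0.87. Of the Ms4a2 UMIs 97.6%, and of the Fcer1a UMIs 79.6%, came from mouse 32, so the r of both genes rest largely on sums of that mouse.

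The genes around the receptors were counted in the same fits, by lists chosen with earlier results known. Of 16 genes of FcεRI signalling, 2 were higher in the clones than in myeloid cells and 5 lower, with a list median of log2 -0.41 against 0.18 over all genes; over all genes 24.3% were higher and 21.1% lower, so the share of the list that passed was near that background. Higher was Plcg2 (log2 1.32 ± 0.27 SE, edgeR adjusted p = 0.00633), and lower were Gab2 (log2 -6.00 ± 0.42), Syk (log2 -1.93 ± 0.30), the kinase recruited by the γ chain, and Lyn (log2 -1.21 ± 0.25), the kinase that starts the signal. All 7 tested genes (21.1% of all genes were lower) of the receptors that pair with Fcer1g, with Tyrobp, were lower, Fcgr4 by log2 -7.99 ± 0.35, Fcgr3 by -7.84 ± 0.45, Tyrobp by -8.31 ± 0.58 and Fcgr1 by -8.22 ± 0.62. Of 9 Fc receptor genes tested outside those of IgE, 3 were higher, led by the IgM receptor Fcmr (log2 4.33 ± 0.33), and 6 lower. Over all genes the same 24.3% were higher and 21.1% lower. The 6 include Fcgr4, Fcgr3 and Fcgr1, which are also in the list before it, so the 2 counts overlap.

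Against myeloid cells again, partners and regulators of CD23 were lower in the clones or did not pass. Of 9 tested, 0 were higher in the clones and 7 lower, where 24.3% of all genes were higher and 21.1% lower, among them the galectin Lgals3 (log2 -7.44 ± 0.46), the integrin chain Itgax (-7.13 ± 0.57), Notch2 (-3.56 ± 0.30) and Itgam (-7.90 ± 0.84). Adam10, the protease that sheds CD23, was lower (log2 -0.96 ± 0.22), and Il4ra was lower (log2 -1.87 ± 0.60, edgeR adjusted p = 0.0369). Of 6 follicular B cell genes 2 were higher than in myeloid cells and 1 lower, near the 45.4% of all genes that passed. The germinal centre gene Mybl1 was higher (log2 3.19 ± 0.37). In the same list S1pr2 (log2 1.41 ± 0.97), Fas (0.61 ± 0.70) and Bcl6 (0.46 ± 0.57) did not pass. Against B cells with another receptor 0 genes of any list passed, where 0.0217% of all genes did, so the count says nothing particular to the lists. The 7 tested genes of the CD23 list had a median of log2 -0.034 there, against 0.13 over all genes. The lower values above are thus differences from myeloid cells and were not seen against other B cells. The follicular genes Klf2 (log2 -1.18 ± 0.23, edgeR adjusted p = 0.141) and Cd55 (log2 -1.42 ± 0.37, adjusted p = 0.226) came nearest in their list.

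In mast or basophil-like cells, where 2.88% of all genes were higher than in myeloid cells and 3.68% lower, 2 of 16 signalling genes were higher, the adaptors Lat2 (log2 4.20 ± 0.58 SE, edgeR adjusted p = 7.24e-11) and Lat (log2 4.33 ± 0.81, adjusted p = 6.69e-06). Il2rg, the common cytokine receptor chain, was higher (log2 1.95 ± 0.54), and Clec4d (log2 -1.94 ± 0.65) and Bcl6 (log2 -3.00 ± 0.74) were lower. Tyrobp did not pass (log2 0.42 ± 0.48, adjusted p = 0.864). Between the myeloid cells of BCR and TCR mice, Lat2 passed alone, where 5.97% of all genes did (log2 1.67 ± 0.41, edgeR adjusted p = 0.0495).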

How the data were processed

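Single-cell RNA and V(D)J libraries of 7 mice were used. The deposited RNA files hold raw counts of UMIs per gene and cell, and the deposited contig files hold counts of UMIs per contig. The submitters' processing notes name the builds GRCm38 and mm10; the aligner and the cell caller of the RNA files are not given in the sources used here. The study's methods name SeekSoulTools for the V(D)J contigs, and a 3′ kit for RNA libraries and a 5′ kit for V(D)J libraries, and which kit these RNA libraries used was not settled.

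Cells with at least 201 UMIs, 101 genes and at most 10% mitochondrial UMIs were kept and grouped into 26 clusters (scanpy 1.11.5, leidenalg 0.10.2, 2000 variable genes, 30 components, 15 neighbours), made without the 4 receptor genes and named from at least 3 markers. No doublet caller was run; cells with at least 2 UMIs of markers of another lineage were left out as an alternative. Counts were summed per class and mouse (sums of at least 20 cells, or 10 for mast or basophil-like cells) and tested with edgeR 4.0.16 (quasi-likelihood, TMM, filterByExpr, R 4.3.3) with mouse as a block where both arms came from the same mice; correlations of the arms' deviations within a mouse were 0.136 to 0.332 for clone and myeloid sums, 0.144 to 0.432 for clone and other B sums and 0.297 for mast or basophil-like and myeloid sums. Adjusted p-values are Benjamini-Hochberg values over all genes tested, with a threshold of 0.05. Alternatives were DESeq2 1.42.0, RLE normalization, no filter, each mouse left out, no block and other cell rules. Fits and thinning were tested on simulated data. Exact tests ran in Python 3.11.15. Intervals (Poisson for CPM, Clopper-Pearson for shares) and the limit of 3 counts for a count of 0 cover counting error only. Each library is 1 sample of 1 mouse, and results are also given without mouse 27, a transplanted tumor by the study's text.

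Named were the 4 genes in every class, the heavy chain constant genes in the clones, the 5 genes most like each by Pearson r of log2(CPM + 1), and genes of fixed pathway lists ranked by p. The 4 genes, the lists and the tests were chosen with earlier results of these data known. An item of these lists is not reported here.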

Additional observations from a re-analysis of the deposited data

Results flagged for a closer look

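In 8 of 18 groups of 4 or 5 mice, 1 mouse stood farther from the others than Dixon's 95% critical value. That value assumes independent groups of normally spread values, while these are CPM near 0 in many groups, from the same libraries. A group with 1 value above 0 always passes it, so the flags are a description and not a test. Fcer1g in the B clone of mouse 33 was 52.6 CPM, with 10.5 CPM in the nearest clone, and Fcer1g in the B-like cells without a receptor call of the same mouse was 29.5 CPM, with 6.67 CPM nearest. Fcer1a in the B clone of mouse 27 was 0.990 CPM, with 0.185 CPM nearest, and Fcer1a in its B-like cells without a call was 1.82 CPM, with 0.229 CPM nearest. Fcer2a in the B cells with another receptor of mouse 31 was 303 CPM, with 82.6 CPM nearest. The other 3 rested on 1 or 2 UMIs against 0 in the other mice: Fcer1a in the B cells with another receptor of mouse 31 (14.4 CPM), Ms4a2 in the B-like cells without a call of mouse 34 (0.0517 CPM) and Fcer2a in the neutrophil-like cells of mouse 29 (0.217 CPM). In the B-lineage cells of mouse 33 the Fcer1g level came with 4.03 CPM of Tyrobp in the clone and 3.90 CPM in the cells without a call. The other B clones held 4.14 to 32.6 CPM of Tyrobp. B-like cells without a call in the other BCR mice held 1.87 to 11.9 CPM. The reason for any of these values was not tested.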

How the results depend on the processing

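Fcer2a and Fcer1g between clones and myeloid cells, and Fcer1a and Ms4a2 between mast or basophil-like and myeloid cells, kept their direction and passed wherever an alternative gave a test; leaving out a mouse of the last comparison gave values with no test (Fcer1a log2 9.39 without mouse 30). Counts of genes passing moved more. Clone against other B cells had 2 genes, 128 by DESeq2, 142 without a filter and 8 to 19 with a mouse left out. Myeloid cells of BCR against TCR mice had 697, 1586 by DESeq2, 1577 without a filter, 405 in neutrophil-like cells alone, and 0 (without mouse 32) to 1566 (without mouse 29) with a mouse left out. Mast or basophil-like against myeloid cells had 636, 319 by DESeq2 and 964 under a stricter marker rule on single cells. There Fcer1g turned to log2 -1.67 (edgeR adjusted p = 0.244). That rule took 26 cells of mouse 30 and 707 of mouse 32, so it compared largely other cells. In mouse 32 Kit was in 92.9%, Gata1 in 55.9% and Mcpt8 in 11.7% of them. The 28 cells of the sub-cluster held these in 17.9, 7.14 and 85.7%. Without the replicate block that pairs sums by mouse, the genes passing were 0 for other B cells and 287 for mast or basophil-like cells. For clones against myeloid cells they were 5069 in place of 5335, with Fcer2a at log2 4.34 and Fcer1g at -6.56. No call of a receptor gene changed. In the Ighe split, Fcer1g turned to log2 0.41 unthinned and 0.22 at 6000 UMIs and ranged from -1.12 to 0.0266 with a mouse left out, while Fcer2a (-0.43) was -0.69 unthinned and -0.40 at 6000 UMIs and ranged from -0.54 to -0.23 with a mouse left out. The causes were not tested. The comparison of macrophage-like cells alone between BCR and TCR mice was not run, since the TCR mice held few such cells. Leaving out doublet-like cells moved 35 of 176 levels, 29 downward. Few other B cells and few mast or basophil-like cells limit those comparisons.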
